A study of Mus musculus with 24 samples.

Results

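The genes described here make bile acids or move them, and were followed in mouse liver after a fast and after a short meal, with and without the transcription factor FoxO1. They were 10 genes chosen by symbol from the 23746 loci in each library's table: the hydroxylases Cyp7a1, Cyp8b1, Cyp27a1 and Cyp7b1, the conjugating enzymes Slc27a5 and Baat, the transporters Slc10a1 and Abcb11, and the nuclear receptors Nr1h4 and Nr0b2. Each of the 10 symbols matched 1 locus, no value of theirs was 0 in any of 24 libraries, and all 10 passed the filter on low values (at least 1 FPKM in at least 3 of the libraries fitted). FPKM, fragments per transcript length, scaled to the library's mapped fragments, is the unit of every level below.

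All mice were C57BL/6, and the libraries fell into 8 groups of 3. In the acute model, mice of genotype FoxO1lox/lox received the adeno-associated virus AAV8.TBG.eGFP (acute control) or AAV8.TBG.Cre (acute knockout), and livers were taken on day 21 after injection; the TBG promoter drives the virus's cargo in hepatocytes. In the constitutive model, FoxO1lox/lox mice without Cre (constitutive control) were compared with FoxO1-/- mice whose floxed allele was removed by Albumin-cre (constitutive knockout), which also acts in hepatocytes. Every control thus carried the floxed allele, and the acute groups also shared a virus. Each genotype was sampled after a 4 h fast (fasted) and after the same fast followed by 1 h of feeding (refed). Age and sex were not stated in the labels used here, nor that each library of a group was a different animal; the p-values therefore speak to the spread of these libraries, and that spread could be technical.

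Bile acids are made from cholesterol in hepatocytes. In the classic pathway Cyp7a1 performs the rate-limiting step and Cyp8b1 sets how much cholic acid is made; in the alternative pathway Cyp27a1 oxidises the sterol side chain and Cyp7b1 hydroxylates the resulting oxysterols. Slc27a5 and Baat attach coenzyme A and then taurine or glycine, Abcb11 (the bile salt export pump) secretes the conjugates into bile, and Slc10a1 (NTCP) takes returning bile acids up from portal blood. Bile acids bind the receptor Nr1h4 (FXR), which induces Abcb11 and the repressor Nr0b2 (SHP), and SHP together with an intestinal hormone represses Cyp7a1 and Cyp8b1.

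Foxo1 matched the labels: it lay between 0.212 and 0.571 FPKM in the 12 knockout libraries and between 4.21 and 6.81 FPKM in the 12 control libraries. Its log2 changes were -2.05 and -2.34 in fasted and refed acute livers and -2.13 and -2.23 in constitutive livers, with adjusted p from 7.19e-07 to 1.39e-05 by limma. The 6 hepatocyte markers (among them Alb and Ttr) summed to between 45935 and 68015 FPKM, and none was at 0. Marker lists of 6 genes each summed to between 16.9 and 64.3 FPKM for endothelial cells, 12.2 and 87.9 for Kupffer cells and macrophages, 38.1 and 94.3 for stellate cells and 20.3 and 84.8 for cholangiocytes, and 1 of these genes (Cftr, in 2 libraries) was at 0 anywhere. In bulk liver, fewer cells of a type and less RNA per cell cannot be told apart. Total depth is unknown, but the steps between low values gave relative depths: 1 library in each acute group (control fasted 3, knockout fasted 1, control refed 3, knockout refed 1) stood at 1.16 to 1.37 times the mean, the other 8 acute libraries at 0.549 to 0.668 and the constitutive libraries at 1.10 to 1.27. The female-biased gene Cyp2b13 set 3 acute control libraries apart: fasted 1 at 55.6, refed 2 at 62.4 and refed 3 at 93.3 FPKM, against at most 3.24 FPKM elsewhere. In all 24 libraries, these 3 included, Xist was at 0.0372 FPKM or below and the Y-linked Ddx3y at 2.99 FPKM or above. Where leaving out the 3 libraries high in Cyp2b13 ended a call of a bile acid gene described below, the value without them is given. For sex-biased genes and cell-type markers outside the bile acid lists, whether a call held without these libraries was not tested.

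Cyp7a1 rose with refeeding, and Cyp27a1, Cyp8b1, Slc27a5 and Abcb11 were lower in livers without FoxO1 in the mean over both models, the last 2 less firmly. Averaged over the 4 genotypes, 3 of the 10 genes changed with refeeding (Cyp7a1 up, Abcb11 and Slc27a5 down), where 30.3% of the 10682 genes tested were called, so that share is near the background. Averaged over both models and both feeding states, 4 of the 10 were lower without FoxO1 and 0 higher, where 3.14% of genes were called (124 higher and 211 lower); without the 3 libraries high in Cyp2b13 the count was 2, Cyp27a1 and Cyp8b1. The median log2 difference of the 10 genes was -0.12 for refeeding, against 0.04 over all genes, and -0.10 for knockout, against 0.00. A gene counts as called at a Benjamini-Hochberg adjusted p under 0.05 over all genes in limma's test of log2(FPKM + 1), and changes below are on that scale with their SE unless given as folds. Where the reference scale was moved from the deposited values to median-of-ratios scaling, the share of higher genes among all refeeding calls fell from 65.8% to 49.5%, while the 3 refeeding calls and the 4 knockout calls among these genes held.

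**Figure D1:**
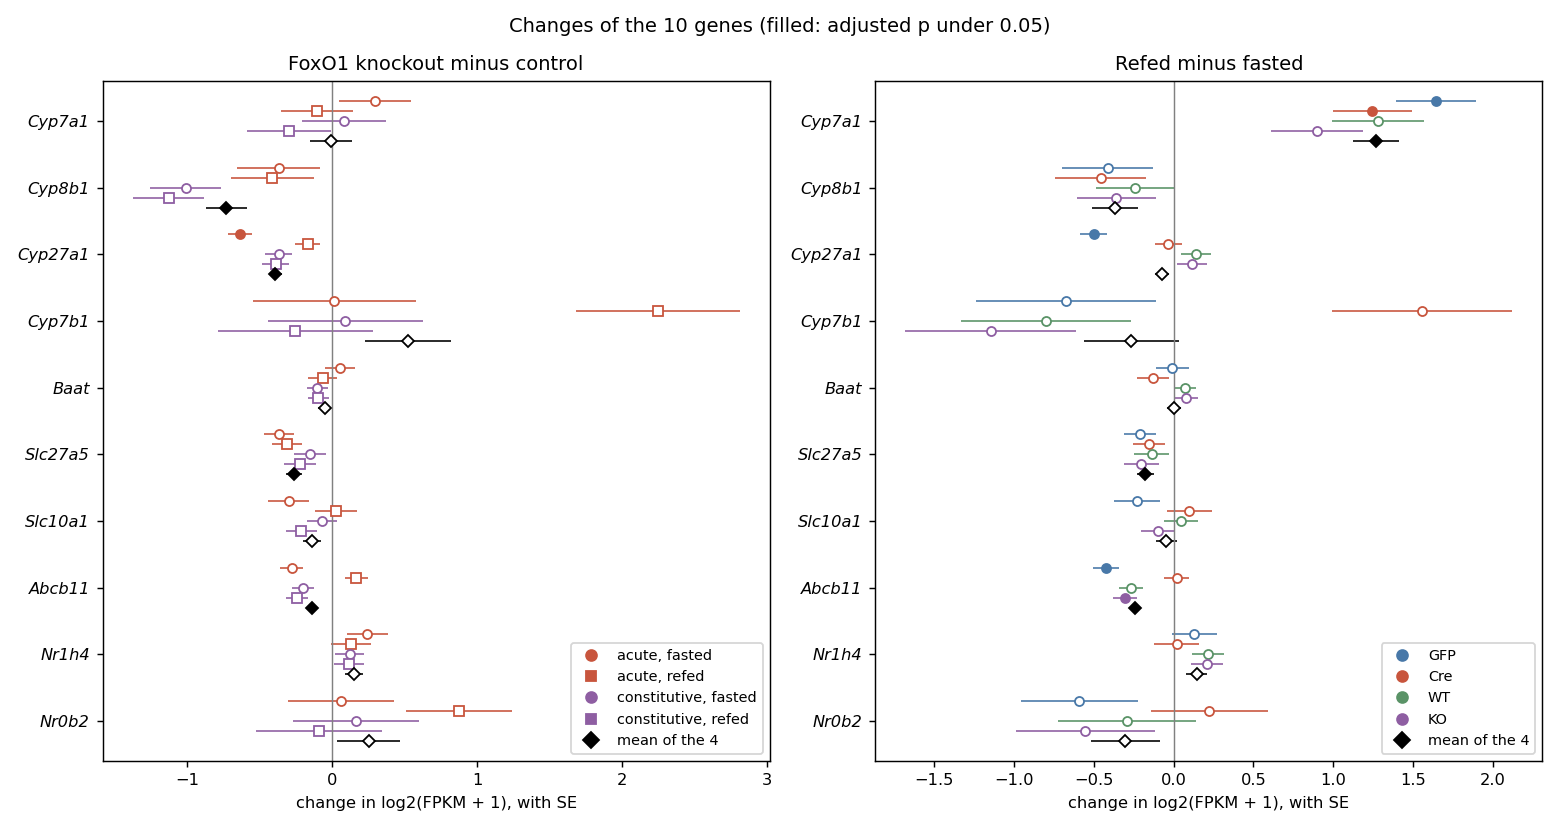
Change of each of the 10 genes in log2(FPKM + 1) (x axes, points with bars of 1 SE), at left knockout minus control for each model and state and at right refed minus fasted for acute control (GFP), acute knockout (Cre), constitutive control (WT) and constitutive knockout (KO); black diamonds are the means of the 4, and filled symbols have an adjusted p under 0.05. The mean for Cyp7a1 stands at 1.27 for refeeding and at -0.01 for knockout, while Cyp8b1 at -0.73 and Cyp27a1 at -0.39 have the lowest knockout means.

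The DNA just before the start site is shown for Cyp8b1, Cyp27a1 and Abcb11, which were among the 4 genes lower without FoxO1. The sequences are the 250 bases before the first transcribed base, 5′ to 3′ on the gene's strand, from RefSeq on GRCm38.p6 (the assembly that mm10 names), whose promoter table held 6 of the 10 genes. They lie at chr9:121916306-121916555 (minus strand), chr1:74713285-74713534 (plus strand) and chr2:69342617-69342866 (minus strand). Capitals mark letters found in a search of both strands for TGTTTAC and TATTTAC (forkhead motifs, the family of FoxO1), AGGTCA (a nuclear receptor half-site), CAAGGNCA (the motif of Nr5a2, which drives bile acid genes) and CAAAGTCCA (the motif of Hnf4a).
Cyp8b1 promoter: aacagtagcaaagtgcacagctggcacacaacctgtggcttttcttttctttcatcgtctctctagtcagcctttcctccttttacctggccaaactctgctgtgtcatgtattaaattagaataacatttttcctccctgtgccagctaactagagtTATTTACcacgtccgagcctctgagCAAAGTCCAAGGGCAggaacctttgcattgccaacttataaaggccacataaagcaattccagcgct
Cyp27a1 promoter: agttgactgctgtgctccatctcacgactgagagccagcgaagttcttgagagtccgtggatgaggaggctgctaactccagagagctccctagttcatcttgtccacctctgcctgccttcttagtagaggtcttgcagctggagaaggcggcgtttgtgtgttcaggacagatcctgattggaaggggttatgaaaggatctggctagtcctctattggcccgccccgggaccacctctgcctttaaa
Abcb11 promoter: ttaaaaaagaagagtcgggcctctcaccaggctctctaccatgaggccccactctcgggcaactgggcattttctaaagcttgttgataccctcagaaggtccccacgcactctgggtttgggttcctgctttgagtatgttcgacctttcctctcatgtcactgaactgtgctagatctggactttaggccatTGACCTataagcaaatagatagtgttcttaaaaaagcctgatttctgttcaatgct
The Cyp8b1 window held TATTTAC, whose first base is 92 before the start, and CAAAGTCCA and CAAGGNCA at 67 and 60 bases before it, which overlap. The Abcb11 window held the half-site on the other strand, 56 bases before the start, and the Cyp27a1 window held none of the motifs. Among the genes not called for knockout, the same search found AGGTCA for Slc10a1 and Nr1h4 and CAAGGNCA for Nr0b2. Of 32851 RefSeq windows of the same length, 3.17% held TGTTTAC, 2.73% TATTTAC, 14% AGGTCA, 5.53% CAAGGNCA and 0.384% CAAAGTCCA. A match describes letters only, the motifs were chosen with the sequences already seen, and no binding was measured here.

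Cyp7a1 (chromosome 4, 6265612 to 6275631, mm10, the whole gene) had the largest mean refeeding effect of the 10 genes over the 4 genotypes. In fasted livers it stood at 26.9, 29.9 and 32.7 FPKM in acute controls, 39.0, 35.3 and 35.8 in acute knockouts, 56.0, 24.03 and 27.8 in constitutive controls and 32.2, 35.5 and 39.2 in constitutive knockouts. After 1 h of refeeding it stood at 73.8, 156 and 74.4 FPKM, 69.3, 96.5 and 103, 74.1, 76.9 and 99.7, and 90.2, 71.9 and 46.6 in the same order. Of the 12 refed libraries, 11 lay above every fasted library, and constitutive knockout refed 3 fell below the highest fasted one. The refed mean was 86.1 FPKM against 34.5 FPKM fasted, 2.49-fold, and the mean log2 change was 1.27 ± 0.15 (SE; limma adjusted p = 4.88e-06).

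Within single genotypes the rise of Cyp7a1 was called in the acute model and not in the constitutive one, although the groups did not overlap in any of the 4. The fold was 3.40 in acute controls (log2 1.64 ± 0.25, adjusted p = 0.00469) and 2.44 in acute knockouts (1.25 ± 0.25, adjusted p = 0.0218). It was 2.32 in constitutive controls (1.28 ± 0.29, adjusted p = 0.0722) and 1.95 in constitutive knockouts (0.90 ± 0.29, adjusted p = 0.0818). The difference between models was 0.36 ± 0.41 in controls and 0.34 ± 0.41 in knockouts (adjusted p = 0.837 and 0.663), and no difference was called. Single libraries moved these calls: without constitutive control fasted 1, the highest fasted library, the value was 1.64 and passed (adjusted p = 0.0344), and without constitutive knockout refed 3 it was 1.16 and passed (adjusted p = 0.0389). The acute knockout call was lost without knockout fasted 2 (adjusted p = 0.0818), fasted 3 (0.0621), refed 2 (0.0721) or refed 3 (0.0510), and in the 8 shallower libraries (0.106). Without the 3 libraries high in Cyp2b13, which leaves 1 acute control refed library, assumed to vary like the other groups, the acute control value was 1.21 (adjusted p = 0.0651).

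No difference of Cyp7a1 between knockout and control was called. In fasted acute livers the knockouts lay above the controls without overlap (0.29 ± 0.25, limma adjusted p = 0.698), and the other pairs of groups overlapped. The mean knockout effect was -0.01 ± 0.15 (adjusted p = 0.987), and the 12 knockout libraries ranged from 32.2 to 103 FPKM against 24.03 to 156 in controls. The 4 refed groups took the first 4 places in the order of means, from 101.6 ± 47.6 FPKM in acute controls (SD, n = 3) to 69.6 ± 21.9 in constitutive knockouts. Of neighbours in that order, only refed constitutive knockouts and fasted acute knockouts did not overlap. Among all genes kept, those whose log2 levels followed Cyp7a1 most closely over the 24 libraries were Trmt61a (Pearson r = 0.90), Nol11 (0.88) and Bysl (0.87), described here without a test because the libraries share the feeding groups.

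**Figure D2:**
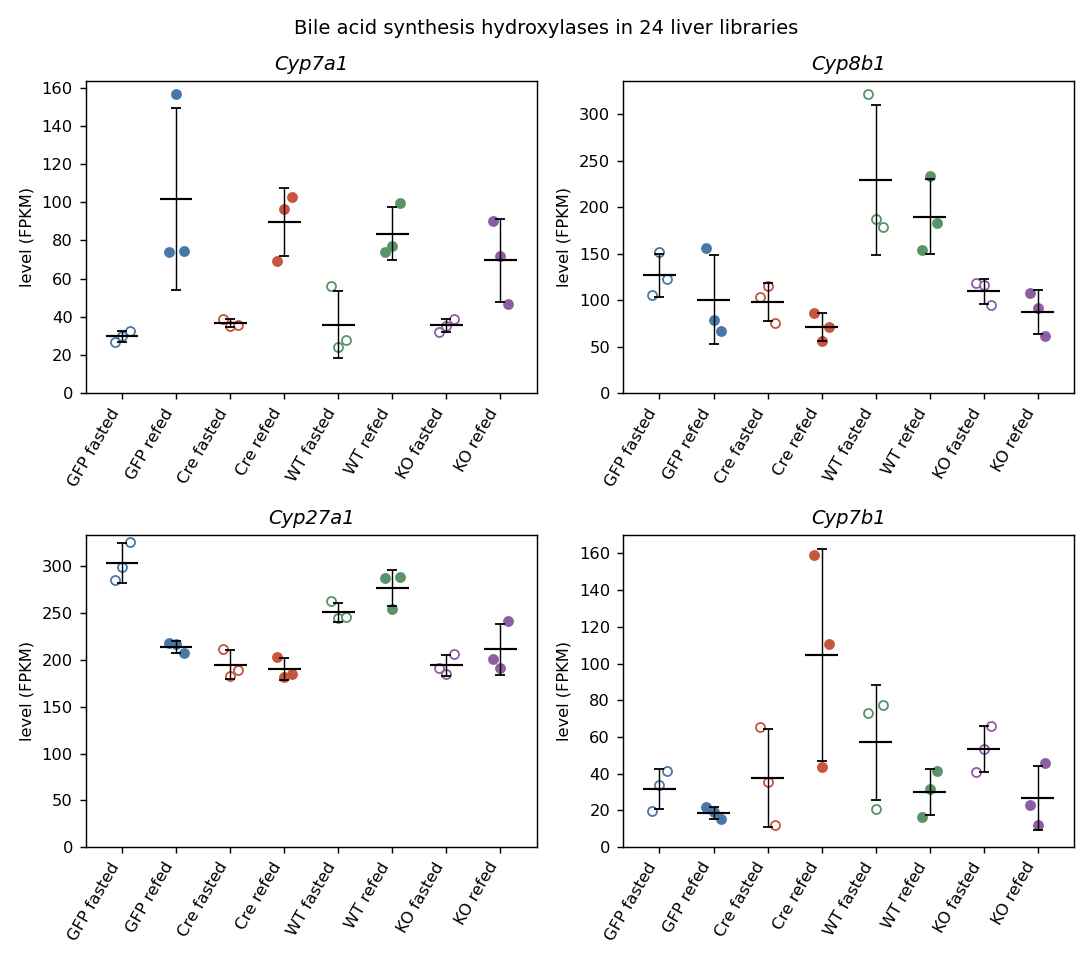
FPKM (y axes, from 0) of the 4 hydroxylases in each library of the 8 groups (x axes; GFP acute control, Cre acute knockout, WT constitutive control, KO constitutive knockout); open points are fasted and filled points refed, horizontal lines are group means and bars 1 SD (n = 3). Refed Cyp7a1 lies from 46.6 FPKM upward, and every knockout library of Cyp27a1 lies at or below 242 FPKM, under all fasted controls.

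Cyp8b1 (chromosome 9, 121914356 to 121916305) was lower without FoxO1 in the mean over both models. Constitutive controls stood at 322, 187 and 179 FPKM fasted and 153, 233 and 182 refed, while constitutive knockouts stood at 118, 116 and 94.5 fasted and 108, 91.5 and 61.8 refed. Each of the 6 constitutive control libraries lay above each of the 6 knockout libraries. In the acute model, controls stood at 106, 152 and 123 FPKM fasted and 156, 79.3 and 67.1 refed, and knockouts at 104, 115 and 75.9 fasted and 86.1, 56.4 and 71.6 refed. Those groups overlapped in both states, and every constitutive control library also lay above all 12 knockout libraries of both models.

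Over both models the mean knockout effect on Cyp8b1 was -0.73 ± 0.14 (limma adjusted p = 0.00637), with means of 91.6 FPKM in knockouts and 162 FPKM in controls, and it held in all 30 alternatives (-0.94 to -0.64). No single comparison of knockout with control was called: the values were -1.01 ± 0.25 and -1.13 ± 0.25 in fasted and refed constitutive livers (adjusted p = 0.305 and 0.162) and -0.37 ± 0.29 and -0.41 ± 0.29 in acute livers (adjusted p = 0.659 and 0.733). The refed acute value was -1.14 (adjusted p = 0.317) without the 3 libraries high in Cyp2b13, which include acute control refed 2 and 3, the lower of that group. The effect differed between models by 0.64 ± 0.41 fasted and 0.72 ± 0.41 refed, neither called (adjusted p = 0.783 and 0.538). Acute minus constitutive controls gave -0.81 ± 0.29 fasted (adjusted p = 0.299) and -0.98 ± 0.29 refed (adjusted p = 0.0884), neither called. Without acute control refed 1, the highest of its group, the refed value was -1.35 and passed (adjusted p = 0.0214); without the 3 libraries high in Cyp2b13, which leaves refed 1 alone, it was -0.26 (adjusted p = 0.744).

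The refeeding values of Cyp8b1 were below 0 in all 4 genotypes, from -0.46 to -0.24, with overlapping groups; without the 3 libraries high in Cyp2b13 the value in acute controls turned to 0.19 (limma adjusted p = 0.769) and the mean to -0.22 (0.273). With all libraries the mean was -0.37 ± 0.14 and missed the threshold (adjusted p = 0.0598). It passed under median-of-ratios scaling (-0.41, adjusted p = 0.0405) and without any 1 of 6 libraries, for which the adjusted p ran from 0.00997 without acute control refed 1 to 0.0482 without acute knockout refed 1; the others were acute knockout fasted 3 (0.0412), constitutive control fasted 3 (0.0468), constitutive control refed 2 (0.0448) and constitutive knockout refed 1 (0.0432). Cyp7a1 and Cyp8b1, the 2 enzymes of the classic pathway that SHP is known to repress, had refeeding means of opposite sign, 1.27 and -0.37, the second not called.

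Cyp27a1 (chromosome 1, 74713574 to 74737890), the mitochondrial enzyme that oxidises the sterol side chain, separated the genotypes more fully than any other of the 10 genes. Acute controls stood at 285, 299 and 327 FPKM fasted and 218, 217 and 207 refed; acute knockouts stood at 212, 183 and 190 fasted and 203, 182 and 185 refed. Constitutive controls stood at 263, 245 and 246 FPKM fasted and 287, 254 and 289 refed, and constitutive knockouts at 191, 185 and 206 fasted and 201, 191 and 242 refed. Of the 12 knockout libraries, 10 lay below every control library, and knockout and control did not overlap in any of the 4 pairs of groups. The knockout mean was 198 FPKM against 261 FPKM in controls, a difference of -24.4%, and the mean log2 effect was -0.39 ± 0.04 (limma adjusted p = 3.15e-05), which held in all 30 alternatives (-0.42 to -0.38).

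In fasted acute livers the lower level of Cyp27a1 was called by itself, the 1 gene of the 10 called in that comparison, where 0.297% of genes were called. The value was -0.64 ± 0.08 (adjusted p = 0.00979); the call was lost without acute control fasted 3 (-0.58, adjusted p = 0.0542) or acute knockout fasted 2 (-0.59, adjusted p = 0.0560) and in the 8 shallower libraries (-0.65, adjusted p = 0.0776). The sum of the 6 endothelial markers was 16.9 to 33.5 FPKM in fasted acute knockouts and 26.9 to 53.4 in the controls. All 6 log2 differences were below 0 (median -0.54) and 0 were called, where 51.8% of all genes had values below 0. In fasted constitutive livers the sum was 38.1 to 45.6 FPKM in knockouts and 27.6 to 31.6 in controls, with 0 of the 6 differences below 0 (median 0.36) and 0 called. The part of these markers in the values of Cyp27a1 was not tested. The other knockout values of Cyp27a1 were -0.17 ± 0.08 in refed acute livers (adjusted p = 0.578), -0.37 ± 0.09 in fasted constitutive livers (0.323) and -0.39 ± 0.09 in refed constitutive livers (0.228).

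A change of Cyp27a1 with refeeding was called in acute controls alone of the 4 genotypes. In acute controls it fell from 304 ± 21.0 to 214 ± 6.19 FPKM (SD, n = 3), by 0.50 ± 0.08 on the log2 scale (adjusted p = 0.00789); this comparison shares the fasted acute controls with the knockout comparison above. The call was lost in the 8 shallower libraries (-0.42, adjusted p = 0.0519) and without the 3 libraries high in Cyp2b13 (-0.52, adjusted p = 0.124). In constitutive controls the value was 0.14 ± 0.09 (adjusted p = 0.512), with overlapping groups, and the knockouts had -0.03 ± 0.08 (acute) and 0.12 ± 0.09 (constitutive). The difference between the controls was -0.64 ± 0.12 (limma adjusted p = 0.134), not called. In the refed state, acute minus constitutive controls gave -0.37 ± 0.09 for Cyp27a1 (limma adjusted p = 0.0482), the 1 gene of the 10 called there, where 0.946% of genes were called (82.2% of them higher, or 35.0% under median-of-ratios scaling). That call was lost in 12 of 13 alternatives, with adjusted p up to 0.212, and among them without any 1 of the 6 libraries compared (0.0712 to 0.165).

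The genes whose log2 levels followed Cyp27a1 most closely over the 24 libraries were Gne (r = 0.87), Mug1 (0.82) and Dio3os (0.81). In the order of its 8 group means, from 304 FPKM in fasted acute controls to 190.3 in refed acute knockouts, the only neighbours without overlap were fasted constitutive controls and refed acute controls. For Cyp8b1 the means ran from 229 FPKM in fasted constitutive controls to 71.4 in refed acute knockouts, and the only such gap lay between refed constitutive controls and fasted acute controls. The genes most like Cyp8b1 were D930014E17Rik (0.83), Cblc (0.82) and Slc25a33 (0.78). As before, these are descriptions over libraries that share groups.

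Cyp7b1 (chromosome 3, 18071950 to 18243338), the oxysterol hydroxylase, was the most variable of the 10 genes, and no comparison called it. Its levels ran from 11.8 FPKM in constitutive knockout refed 2 to 159 FPKM in acute knockout refed 1, 13.5-fold, and its spread within groups exceeded that of 98.9% of the genes kept. The acute knockout refed libraries stood at 159, 43.8 and 111 FPKM, all above the acute control refed libraries at 21.9, 19.0 and 15.3. That difference was 2.25 ± 0.56 (limma adjusted p = 0.196), and without the 3 libraries high in Cyp2b13 it was 2.02 ± 0.87 (adjusted p = 0.629). In fasted acute livers controls stood at 19.7, 33.9 and 41.3 FPKM and knockouts at 65.3, 35.4 and 12.03. Constitutive livers stood at 73.0, 21.0 and 77.4 (control fasted), 41.2, 53.4 and 66.0 (knockout fasted), 16.4, 31.8 and 41.4 (control refed) and 22.8, 11.8 and 45.7 FPKM (knockout refed), and every neighbouring pair in the order of its 8 group means overlapped.

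Cyp7b1 is known as a male-biased gene of mouse liver, and it varied together with some but not all of the other sex-biased genes. In all 24 libraries Xist was at 0.0372 FPKM or below and the Y-linked Ddx3y between 2.99 and 11.3 FPKM. The male-biased Hsd3b5 stood at 180 and 172 FPKM in acute knockout refed 1 and 3, the 2 libraries highest in Cyp7b1, and at 9.24 FPKM in acute knockout fasted 3, the second lowest. In the 3 libraries high in Cyp2b13, Hsd3b5 stood at 11.7, 2.72 and 8.26 FPKM and Cyp7b1 at 19.7, 19.0 and 15.3. The female-biased Cyp2b9 was at 133, 109 and 187 FPKM there, and at 0.449 FPKM in acute knockout refed 1. Constitutive knockout refed 2, lowest in Cyp7b1, had Hsd3b5 at 53.4 FPKM. The male-biased Mup20 stood at 1415 FPKM in acute knockout refed 1 and peaked at 6778 FPKM in constitutive control refed 2. Cyp7b1 was at 31.8 FPKM and Hsd3b5 at 74.6 FPKM in that library. The sum of the 12 male-biased genes, Mup20 included, was highest there, at 12390 FPKM. The genes most like Cyp7b1 over the 24 libraries were Hsd3b4 (r = 0.92, at 3 loci and so uncertain), Ces3b (0.83) and LOC622167 (0.80). In the mean knockout effect, 3.14% of all genes were called. Of 12 male-biased genes tested, 2 were called higher, Cyp4a12a (1.37) and Cyp4a12b (1.45), which are near-identical copies, and 0 lower. Whether these 2 calls held without the 3 libraries high in Cyp2b13 was not tested. Of 9 female-biased genes tested, 0 were called. Mean Cyp4a12a was 93.3 FPKM in fasted acute knockouts against 14.5 in their controls, and 141 against 47.8 refed. In constitutive livers it was 128 against 78.8 fasted, but 111 against 150 refed. Mean Cyp4a12b was likewise lower in knockouts only in refed constitutive livers, at 48.9 against 54.0 FPKM. For knockout in refed acute livers, 0.105% of all genes were called and 49.99% had values below 0. There all 12 male-biased genes had values above 0 (median 1.22) and 8 of 9 female-biased genes below 0 (median -1.44), with 0 called in either list. For knockout in refed constitutive livers, 0.0289% of all genes were called and 52.3% had values below 0. In that comparison 10 of 12 male-biased genes had values below 0 (median -0.25) and 3 of 8 female-biased genes (median 0.83), with 0 called in either list. In fasted livers, 0 of 12 male-biased and 5 of 9 female-biased genes were below 0 in the acute model. In the constitutive model 5 of 12 and 2 of 8 were. The part of these genes in the differences of Cyp7b1 was not tested.

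**Figure D3:**
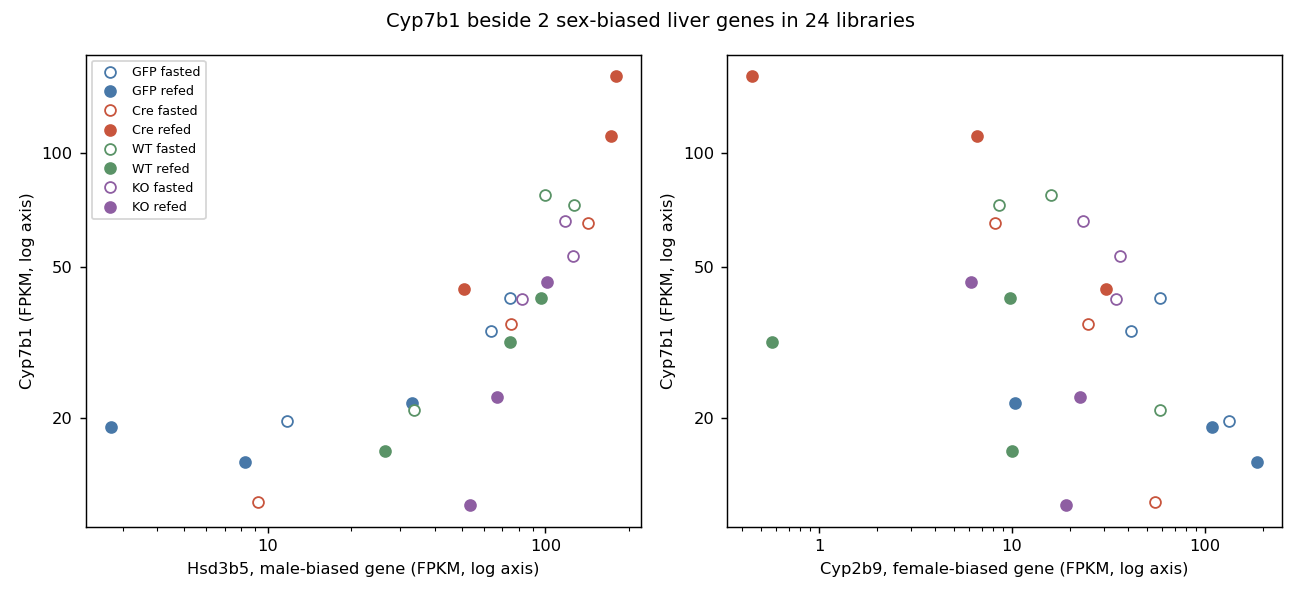
Cyp7b1 (y axis, FPKM, log axis) against the male-biased Hsd3b5 and the female-biased Cyp2b9 (x axes, FPKM, log axes), 1 point per library, open for fasted and filled for refed (GFP acute control, Cre acute knockout, WT constitutive control, KO constitutive knockout). The 2 libraries highest in Cyp7b1, at 159 and 111 FPKM, are also the 2 highest in Hsd3b5, and the 3 highest in Cyp2b9 are acute controls with Cyp7b1 below 20 FPKM.

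Of the conjugating enzymes, Slc27a5 was called and Baat did not pass in any comparison. Slc27a5 (chromosome 7, 12988346 to 12998192), the bile acyl-CoA synthetase, stood at 490, 440 and 427 FPKM in fasted acute controls and 337, 413 and 425 in refed ones, against 360, 327 and 363 and 315, 333 and 295 in the fasted and refed acute knockouts. Constitutive controls stood at 351, 415 and 384 fasted and 370, 315 and 361 refed, and constitutive knockouts at 366, 328 and 338 fasted and 321, 253 and 328 refed. Knockout and control did not overlap in the acute model and did in the constitutive one, and no single comparison of knockout with control was called. The knockout mean was 327 against 394 FPKM, a difference of -17.0%, and the mean effect was -0.26 ± 0.05 (limma adjusted p = 0.00831). Without the 3 libraries high in Cyp2b13 it was -0.20 and missed the threshold (adjusted p = 0.0910). The mean refeeding effect was -0.18 ± 0.05 (adjusted p = 0.0176), from 382 to 339 FPKM, and held in all 30 alternatives (-0.22 to -0.15). In the order of group means, from 452 FPKM in fasted acute controls to 300.5 in refed constitutive knockouts, only fasted acute controls stood clear of their neighbour. The closest genes were Cyp2c54 (r = 0.88), Pbld1 (0.87) and Hrg (0.87).

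Baat (chromosome 4, 49489418 to 49506558), which joins the activated bile acid to taurine or glycine, had the smallest ratio of highest to lowest library of the 10, 1.30, from 110 to 143 FPKM. Its group means ran from 115 FPKM in fasted constitutive knockouts to 130.3 in fasted acute knockouts, and every neighbouring pair overlapped. Fasted constitutive knockouts at 115, 114 and 115 FPKM lay below their controls at 132, 122 and 116 without overlap (-0.10 ± 0.07, limma adjusted p = 0.920). The mean refeeding effect was 0.00 ± 0.04 and the mean knockout effect -0.05 ± 0.04 (adjusted p = 0.960 and 0.612). Its closest genes were Pigf (r = 0.72), Srd5a3 (0.71) and Ube2a (0.69).

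Abcb11 (chromosome 2, 69238282 to 69342616) had the smallest spread within groups of the 10, below that of all but 3.61% of the genes kept, and small differences were called. Fasted acute controls stood at 107, 97.5 and 104 FPKM and refed ones at 72.3, 78.3 and 78.6; acute knockouts stood at 86.9, 78.7 and 88.2 fasted and 92.7, 82.3 and 82.5 refed. Constitutive controls went from 92.2, 88.1 and 102 FPKM fasted to 81.6, 73.4 and 78.6 refed, and constitutive knockouts from 86.1, 78.2 and 79.8 to 67.5, 66.4 and 63.1. Fasted and refed libraries did not overlap in 3 of the 4 genotypes, the exception being acute knockouts. The refed mean was 76.4 against 90.7 FPKM, a difference of -15.7%, and the mean refeeding effect was -0.24 ± 0.04 (limma adjusted p = 6.88e-05), which held in all 30 alternatives (-0.28 to -0.23).

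By genotype, Abcb11 fell with refeeding in acute controls (-0.42 ± 0.08, adjusted p = 0.0124) and constitutive knockouts (-0.30 ± 0.08, adjusted p = 0.0408); the values were -0.27 ± 0.08 in constitutive controls (adjusted p = 0.133) and 0.02 ± 0.08 in acute knockouts (adjusted p = 0.900). The acute control call was lost in the 8 shallower libraries (adjusted p = 0.0745), without the 3 libraries high in Cyp2b13 (0.126) and with the compared groups fitted alone (0.0518). The constitutive knockout call was lost without any 1 of its 6 libraries: without knockout fasted 1, 2 or 3 the adjusted p was 0.149, 0.0837 or 0.0828, and without refed 1, 2 or 3 it was 0.0708, 0.117 or 0.0700. The refeeding value in the acute knockout minus that in the acute control was 0.44 ± 0.11 (limma adjusted p = 0.630) and minus that in the constitutive knockout 0.32 ± 0.10 (adjusted p = 0.103), neither called.

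Abcb11 was also lower in the mean knockout effect, at -0.14 ± 0.04 (limma adjusted p = 0.0397), with 79.4 FPKM in knockouts and 87.8 in controls. That call stood at the edge of the threshold and was lost in 18 of 30 alternatives, with adjusted p up to 0.199 without the 3 libraries high in Cyp2b13. It was lost without any 1 of 16 libraries and held without any 1 of the other 8, which were acute control fasted 2, acute knockout fasted 3, acute control refed 1, acute knockout refed 1, constitutive control fasted 1 and 2, constitutive knockout fasted 1 and constitutive control refed 2. In refed acute livers the knockouts lay above the controls without overlap (0.16 ± 0.08, adjusted p = 0.575), and in the other 3 pairs below, from -0.28 to -0.21, none called. Its group means ran from 102.8 FPKM in fasted acute controls to 65.7 in refed constitutive knockouts, and that lowest group alone stood clear of its neighbour. The closest genes were Etv6 (r = 0.83), Cth (0.83) and Abat (0.81).

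Slc10a1 (chromosome 12, 80953185 to 80968079) ranged from 258 to 391 FPKM and passed in no comparison. Its group means ran from 372 ± 14.7 FPKM in fasted acute controls to 299.8 ± 8.55 in refed constitutive knockouts (SD, n = 3), with all neighbours overlapping. In fasted acute livers the controls at 359, 388 and 370 FPKM lay above the knockouts at 357, 285 and 269, and the value was -0.30 ± 0.14 (limma adjusted p = 0.433). The mean knockout effect was -0.14 ± 0.06 (adjusted p = 0.294) and the mean refeeding effect -0.04 ± 0.06 (adjusted p = 0.636). Its values moved with the 3 libraries high in Cyp2b13: without them refeeding in acute controls went from -0.23 to -0.55 and knockout in refed acute livers from 0.02 to 0.32 (adjusted p = 0.177 and 0.690). Its closest genes over the 24 libraries were Fkbp15 (r = 0.71), Mreg (0.69) and Mylk (0.68).

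**Figure D4:**
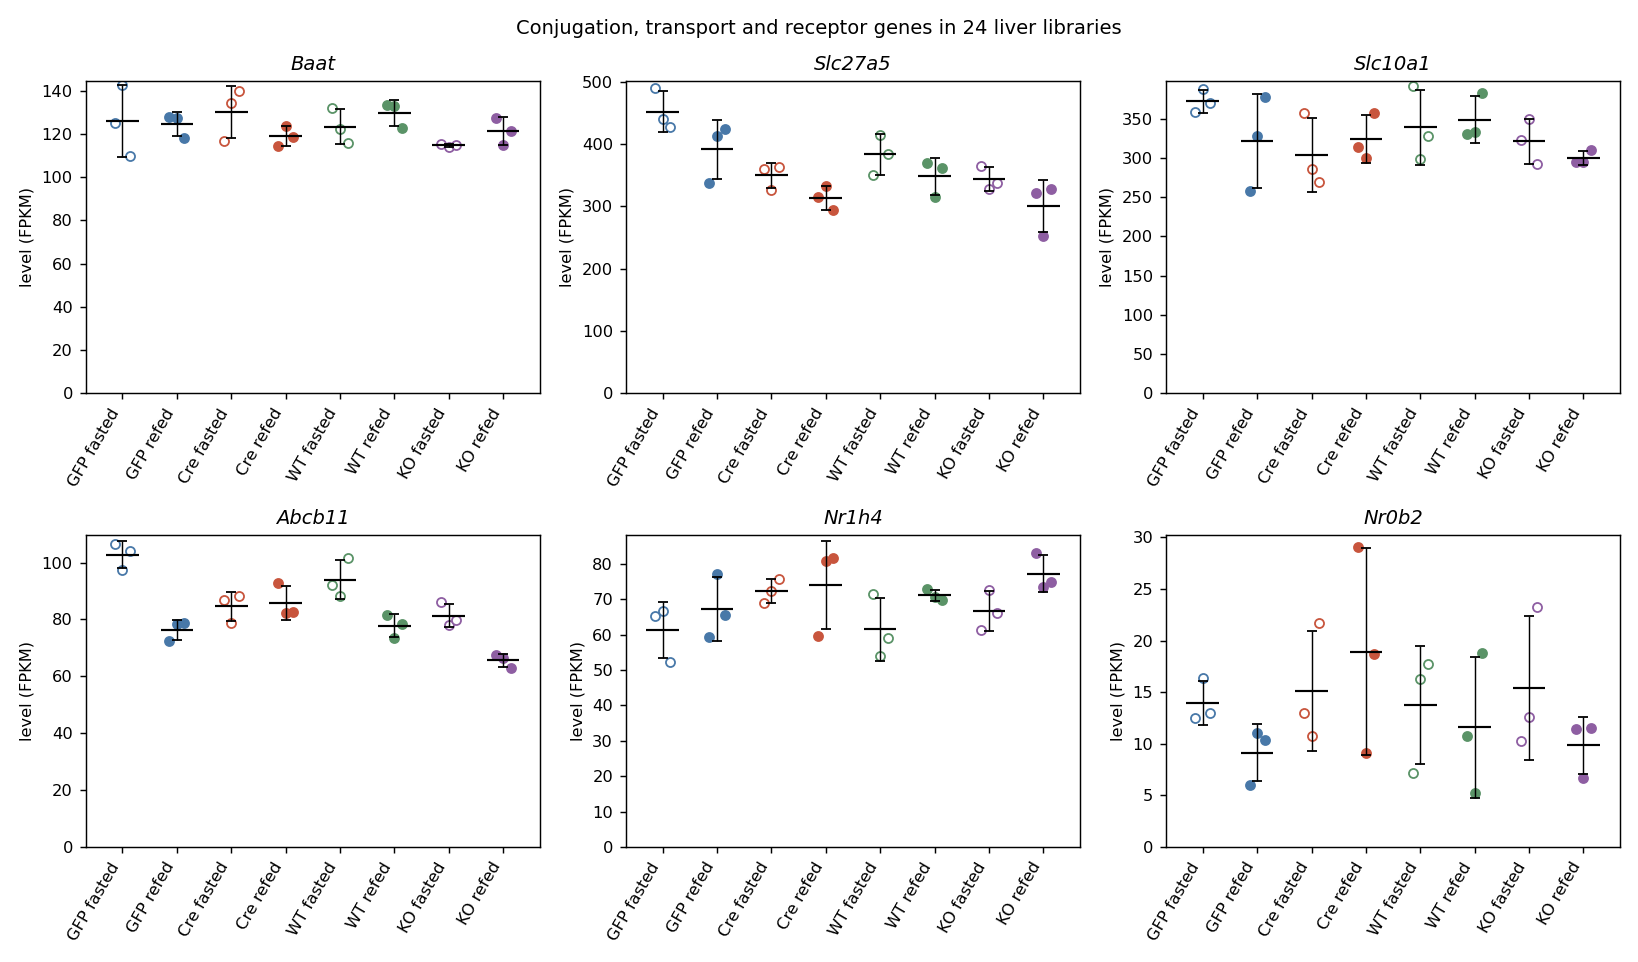
FPKM (y axes, from 0) of the conjugation, transport and receptor genes in each library of the 8 groups (x axes; GFP acute control, Cre acute knockout, WT constitutive control, KO constitutive knockout); open points are fasted, filled points refed, lines are means and bars 1 SD (n = 3). The acute knockout libraries of Slc27a5 lie below the acute controls of the same state, a difference not called in either state. Refed libraries of Abcb11 lie below fasted ones in 3 genotypes, called in acute controls and constitutive knockouts. Nr0b2 scatters between 5.21 and 29.1 FPKM.

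The bile acid receptor Nr1h4 (chromosome 10, 89454234 to 89533622) lay between 52.3 and 83.1 FPKM, with means of 72.4 refed against 65.4 fasted and 72.5 in knockouts against 65.3 in controls. The refed mean was higher in all 4 genotypes and the knockout mean in all 4 pairs. The mean refeeding effect was 0.14 ± 0.06 (limma adjusted p = 0.0899) and the mean knockout effect 0.15 ± 0.06 (adjusted p = 0.238), neither called. The refeeding value passed without acute knockout refed 1 (0.18, adjusted p = 0.0232) or constitutive control fasted 1 (0.17, adjusted p = 0.0422). The genes nearest to it over the 24 libraries were Prdx4 (r = 0.88), Cetn2 (0.81) and 2210016F16Rik (0.80).

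Nr0b2 (chromosome 4, 133553390 to 133556536), the target of that receptor, was the lowest of the 10 genes per length and among the most scattered, with a within-group spread above that of 98.3% of the genes kept. Fasted libraries stood at 12.5, 16.4 and 13.0 FPKM (acute control), 13.0, 10.8 and 21.8 (acute knockout), 7.18, 16.3 and 17.8 (constitutive control) and 10.3, 12.6 and 23.3 (constitutive knockout). Refed libraries stood at 6.00, 11.1 and 10.4, 29.1, 9.09 and 18.7, 10.8, 5.21 and 18.8, and 11.4, 6.66 and 11.5 FPKM in the same order. Only in acute controls were all refed libraries below all fasted ones (-0.59 ± 0.37, adjusted p = 0.357). The mean refeeding effect was -0.30 ± 0.22 and the mean knockout effect 0.25 ± 0.22 (limma adjusted p = 0.308 and 0.636). For knockout in refed acute livers the value was 0.88 ± 0.37 (adjusted p = 0.497), with overlapping groups. The closest genes followed it weakly, with Unc50 at r = 0.61 and Rab11fip1 and Agk at 0.59.

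Read against all genes, the calls among the 10 were few in most single comparisons. Knockout against control called 0.297% of genes in fasted acute livers (1 of the 10) and 0.105% in refed acute livers (0 of the 10, with 3 of the 10 and 950 of all genes at an unadjusted p under 0.05 by limma). In the constitutive model the shares were 0.0964% fasted (60% of calls higher, or 40% under median-of-ratios scaling) and 0.0289% refed (0% and 20% higher), with 0 of the 10 called and 3 of the 10 under 0.05 unadjusted in each (681 and 1124 of all genes). Refeeding called 6.56% of genes in acute controls, 1 of the 10 up and 2 down, and 5.44% in acute knockouts, 1 of the 10 up. It called 0.318% in constitutive controls, 0 of the 10, with 2 of the 10 and 1614 of all genes under 0.05 unadjusted, and 5.68% in constitutive knockouts, 1 of the 10 down. Higher genes made up 73.3%, 78.9%, 48.5% and 35.1% of those refeeding calls as deposited, and 46.0%, 51.9%, 35.4% and 47.3% after scaling. Fasted acute and constitutive controls differed at 0.103% of genes, with 0 of the 10 called and 3 of the 10 under 0.05 unadjusted (1252 of all genes).

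Tests of the differences between effects called none of the 10 genes in 60 tests over 6 comparisons, 9 of which had an unadjusted p under 0.05 by limma. The interaction of knockout and refeeding called 0.0287% of all genes in the acute model and 0% in the constitutive one (690 and 457 genes under 0.05 unadjusted, of the 10 genes 3 and 0). The knockout effect differed between models at 0% of genes fasted and 0% refed (839 and 1165 under 0.05 unadjusted, of the 10 genes 1 and 2). The refeeding effect differed between models at 0.00936% of genes in controls and 0.253% in knockouts (1005 and 2162 under 0.05 unadjusted, of the 10 genes 1 and 2). The lowest adjusted p among the 60 was 0.0973, for Cyp7b1 in the refeeding effect of acute against constitutive knockouts (2.70 ± 0.84). In that comparison median-of-ratios scaling moved the median of all genes from 0.11 to 0.00, its one shift of more than 0.1, and the share of higher calls from 81.5% to 26.3%; the Cyp7b1 value was then 2.58 (adjusted p = 0.125).

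Other genes of the pathway were taken from 3 lists. Of 14 further synthesis genes tested, 4 fell with refeeding in the mean over genotypes and 1 rose, a share near the 30.3% of all genes called in that comparison: Hsd3b7 (-0.39 ± 0.07), which acts on the steroid ring after Cyp7a1, Acox2 (-0.25 ± 0.06) and Amacr (-0.20 ± 0.04), both of peroxisomal side-chain shortening, and Por, the electron donor of microsomal cytochromes P450 (0.27 ± 0.10, limma adjusted p = 0.0429). The fourth that fell was Slc27a2 (-0.20 ± 0.05), a second acyl-CoA synthetase. Por was lost in 19 of 30 alternatives, among them without the 3 libraries high in Cyp2b13 (0.24, adjusted p = 0.143) and median-of-ratios scaling, under which 8 of the list fell and 0 rose; Slc27a2 was lost in the 8 shallower libraries (adjusted p = 0.0586) and without the 3 libraries high in Cyp2b13 (0.0566). Without those 3 libraries 3 of the list fell and 0 rose. In the mean knockout effect, where 3.14% of all genes were called, 1 of the 14 was called, Slc27a2, at -0.38 ± 0.05 (limma adjusted p = 0.000337, held in all 30 alternatives). Its knockout libraries stood at 496 to 624 FPKM against 698 to 790 in fasted acute controls, and at 461 to 565 against 671 to 794 refed; in the constitutive model they stood at 602 to 679 against 680 to 763 fasted and 424 to 546 against 629 to 682 refed, without overlap in any pair. The medians of the list were -0.09 for refeeding and 0.01 for knockout, against 0.04 and 0.00 over all genes.

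Of 13 further transporters tested, 6 fell with refeeding and 1 rose, where 30.3% of all genes were called. The largest falls were of Abcg8 (-0.38 ± 0.09) and Abcg5 (-0.32 ± 0.07), which together export cholesterol into bile, and of Abcc2 (-0.32 ± 0.07), which exports organic anions and glutathione; the organic anion uptake transporter Slco1a1 had 0.47 ± 0.17 (limma adjusted p = 0.0460), a call lost in 20 of 30 alternatives, and is also male-biased. Abcc2, Abcg5 and Abcg8 held in all 30, the falls of Abcc3, Atp8b1 and Abcb4 were lost in 13, 9 and 1, and under median-of-ratios scaling 7 transporters fell and 0 rose. Without the 3 libraries high in Cyp2b13 the calls of Slco1a1 (0.42, adjusted p = 0.119), Abcc3 (-0.17, 0.198), Abcb4 (-0.18, 0.0618) and Atp8b1 (-0.14, 0.0514) were lost, and 3 of the list fell and 1 other, Slc10a2, the bile acid transporter of ileum and cholangiocytes, named after its value was seen, rose. In the mean knockout effect 0 of 13 were called, where 3.14% of all genes were. The list's medians were -0.12 for refeeding and -0.10 for knockout, and those of the 10 genes were -0.12 and -0.10.

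Of 13 further regulators tested, 3 rose and 4 fell with refeeding, where 30.3% of all genes were called, and 0 were called for knockout, where 3.14% were. Hnf4a, a nuclear receptor that many liver genes depend on, rose by 0.27 ± 0.04 and Foxa2 by 0.36 ± 0.11, while the constitutive androstane receptor Nr1i3 fell by 0.29 ± 0.09, Nr5a2 fell by 0.30 ± 0.08 and Zfp36l1, which speeds the decay of Cyp7a1 messenger RNA, fell by 0.38 ± 0.10 (limma adjusted p from 7.13e-05 to 0.0172). The Zfp36l1 call was lost without the 3 libraries high in Cyp2b13 (-0.28, adjusted p = 0.0770). Within acute controls, where refeeding called 6.56% of all genes, 3 of the 13 regulators rose and 0 fell. They were Onecut1 (2.02 ± 0.43), Foxa2 (0.94 ± 0.24) and Nr1h3 (0.39 ± 0.09), with limma adjusted p from 0.0214 to 0.0395. These calls were lost in 7, 9 and 8 of 13 alternatives. All 3 were lost without acute control fasted 1 or refed 3 and in the 8 shallower libraries (adjusted p = 0.0711, 0.167 and 0.108). Without the 3 libraries high in Cyp2b13 they were also lost (adjusted p = 0.116, 0.135 and, at 0.17 for Nr1h3, 0.447). In constitutive knockouts, where refeeding called 5.68% of all genes, 1 of the 14 synthesis genes rose, Cyp39a1 (0.68 ± 0.11, limma adjusted p = 0.0108). Falls were called for 3 of those 14 (Slc27a2, Acox2 and Amacr), 1 of 13 transporters (Abcc2) and 1 of 13 regulators (Mafg), from -0.63 to -0.38. The Cyp39a1 call was lost without knockout fasted 1 (adjusted p = 0.0563), and each of the falls without any 1 of knockout fasted 1, 2 and 3 and refed 2.

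In the mean refeeding effect, where 30.3% of all genes were called, 4 of 6 endothelial, 4 of 6 stellate and 2 of 6 Kupffer and macrophage markers rose and 0 fell, with list medians of 0.27, 0.32 and 0.44; 0 of 3 cholangiocyte markers and 0 of 6 hepatocyte markers were called. In the mean knockout effect 0 of these markers were called except the hepatocyte gene Apoa1 (-0.20 ± 0.05, limma adjusted p = 0.0229). Their part in the refeeding values of the 10 genes was not tested.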

How the data were processed

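Liver RNA was sequenced in 24 libraries (TruSeq stranded mRNA), 3 in each of 8 groups. The deposited values are FPKM per gene, which the authors made with HISAT2, Cufflinks and Cuffdiff on mm10, per the submitters' processing notes; versions were not given in the sources used here. FPKM keeps no total depth, so only relative depth was read, from the steps between low values of 5983 loci, and no counting error can be given. Loci with a failed estimate in some library (14) were left out, and 20 of 2446 loci with a median of at least 20 FPKM were listed at 0 somewhere; none of the 10 genes was. No pair of libraries held identical values.

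From these values log2(FPKM + 1) was tested with limma 3.58.1 in R 4.3.3 (trended empirical Bayes, two-sided, groups as given by the labels) on genes with at least 1 FPKM in at least 3 libraries: 10452 genes in the 12 acute libraries, 10375 in the 12 constitutive ones and 10682 in all 24, the last for means over models and differences between them. The added 1 understates the change of low genes. P-values were adjusted by Benjamini-Hochberg over all genes of a comparison, in 18 comparisons, several of which share libraries. The code was tested on simulated data. Tables and figures used Python 3.11.15, pandas 2.3.3, numpy 2.4.6 and matplotlib 3.10.9.

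The 10 genes and the gene lists were chosen with earlier results of these data known. The text names up to 4 called genes of each pathway list per comparison, by size, up to 4 sex-biased genes, and for each member the 3 genes with the highest Pearson correlation. Outside that rule, and after their values were seen, it names the refeeding value of Slc27a2, Cyp4a12a, Cyp4a12b, Apoa1, Hnf4a, Abcc3, Abcb4 and Atp8b1. The motifs were chosen after the promoter sequences were seen. All 108 list entries were found in the files, 3 under older symbols. Alternatives were adding 0.1 in place of 1, dropping the filter, scaling by the median of ratios, a replicate block, the compared groups fitted alone, the 8 shallower acute libraries, each replicate left out in turn and, chosen after seeing the data, leaving out the 3 libraries with Cyp2b13 above 50 FPKM.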

Additional observations from a re-analysis of the deposited data

How the results depend on the processing

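Of the 14 called single-gene results among the 10 genes, none changed sign in any alternative; over all 180 results there were 2920 alternative values, of which 53 lost a call and 13 gained one. The number of the 10 genes called fell from 1 to 0 for knockout in fasted acute livers in the 8 shallower libraries (0 to 1 with 1 library left out), and from 3 to 1 for refeeding in acute controls in the shallower libraries, or to 0 without the 3 libraries high in Cyp2b13. For refeeding it went from 1 to 0 in acute knockouts in the shallower libraries (0 to 1 with 1 library left out), from 1 to 0 in constitutive knockouts with no filter or with the groups alone (0 to 1 with 1 library left out), and stood at 0 to 1 in constitutive controls with 1 library left out. The mean refeeding count ran from 3 to 5 and the mean knockout count from 3 to 4 with 1 library left out, and the latter was 2 without the libraries high in Cyp2b13. For refed acute against constitutive controls the count of 1 became 0 with a pseudocount of 0.1, no filter, the replicate block, the groups alone, the shallower libraries or without the libraries high in Cyp2b13, and 0 to 1 with 1 library left out.

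Counts over all genes moved more, and a smaller number of libraries goes with fewer residual degrees of freedom in several of these fits. With 1 library left out they ran, for knockout, from 7 (without acute knockout fasted 2) to 36 in fasted acute livers (31 with all), from 3 (without acute knockout refed 3) to 66 (without acute control refed 1) in refed acute livers (11), from 1 (without knockout fasted 1) to 7 in fasted constitutive livers (10) and from 2 to 13 (without knockout refed 1) in refed ones (3). For refeeding they ran from 293 (without acute control fasted 1) to 578 in acute controls (686), from 57 (without acute knockout fasted 2) to 428 in acute knockouts (569), from 6 (without control refed 3) to 32 in constitutive controls (33) and from 71 (without knockout fasted 1) to 740 in constitutive knockouts (589); the mean knockout count ran from 219 (without constitutive knockout refed 1) to 363 (335), refed acute against constitutive controls from 1 (without constitutive control refed 2) to 250 (without constitutive control refed 1; 101), fasted from 0 (without acute control fasted 1) to 14 (11), the acute interaction from 2 to 7 (3), and the difference of refeeding between models from 1 to 3 in controls (1) and from 0 (without acute knockout fasted 3) to 216 (without acute knockout fasted 1) in knockouts (27); the knockout difference ran from 0 to 45 fasted (without acute control fasted 2) and from 0 to 14 refed (without acute control refed 1; 0 in each). With no filter these counts were 17 (fasted acute knockout), 6 (refed acute knockout), 451, 316, 21 and 275 (refeeding, in the order above), 4 and 2 (constitutive knockout), 57 (refed controls) and 3 (fasted controls). With the groups alone they were 61, 3, 280, 232, 10, 277, 5, 10, 6 and 2 in that order, with 9 and 3 for refeeding between knockouts and between controls. The 8 shallower libraries gave 5, 4, 222 and 6 for the first 4, 183 for the mean knockout, 158 and 15 for refed and fasted controls, 124 for refeeding between knockouts and 4 for the fasted knockout difference. Without the libraries high in Cyp2b13 acute control refeeding fell to 39, refed acute knockout to 2 and acute knockout refeeding stood at 393, with 200 for the mean knockout, 65 and 0 for refed and fasted controls 76 for refeeding between knockouts, 6 between controls, and 2 and 4 for the fasted and refed knockout difference. Median-of-ratios scaling gave 82 for constitutive control refeeding, 364 for acute knockout refeeding, 15 and 5 for fasted and refed constitutive knockout, 57 for refeeding between knockouts and 3 for fasted controls, and the pseudocount of 0.1 gave 5 for refed constitutive knockout and 2 for fasted controls. The cause of these shifts was not tested.

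The labels' replicate numbers are not said to mark shared animals or days. Same-numbered libraries had correlations of deviations from -0.335 to 0.365 in the acute model and -0.148 to 0.259 in the constitutive one. They were over 0.1 in 5 and 8 of 18 pairs, and the own number gave the best match in 4 and 11 of the 18. With the replicate block the mean refeeding value of Cyp8b1 passed (adjusted p = 0.0488 by limma), the Cyp27a1 difference between refed controls was lost, and counts over all genes were 457 and 306 for refeeding in acute controls and knockouts, 80 in constitutive controls, 77 for refeeding between knockouts, 5 for refed acute knockout, and 2 and 1 for refed and fasted controls.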
